A study of Mus musculus with 6 samples.

Results

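The genes described here are the cytokine gene Il11, the chemokine gene Cxcl3, the interleukin-1 receptor antagonist gene Il1rn and the NF-kB subunit genes Nfkb1 and Relb, in mouse kidney RNA. They are 5 of 9519 genes that could be read from the deposited counts, and all 5 were chosen by name. Paired-end RNA sequencing was run on kidney of C57BL/6 mice, an inbred laboratory strain, at postnatal day 21, with 3 libraries labelled acute renal failure (titled treat) and 3 labelled healthy (titled control). In acute renal failure the kidney loses its filtering function quickly. The labels name no treatment, genotype or cause, nor do they tie the libraries to separate animals. The p-values therefore measure the spread between these libraries, which may be technical. The groups are called ARF-labelled and healthy-labelled below because genes of tubular injury, neutrophils and the immediate early response were higher in the libraries labelled healthy. Whether the labels of the groups were exchanged was not tested; an exchange would turn the sign of every fold change given here.

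Cytokines are secreted proteins that bind receptors on other cells, and chemokines are the cytokines that guide migrating cells. Interleukin-11 signals through its own receptor subunit and the shared subunit gp130 to the kinases of the JAK family and the transcription factor STAT3. Cxcl3 is a chemokine that attracts neutrophils, and the product of Il1rn binds the interleukin-1 receptor without activating it. NF-kB is a family of dimeric transcription factors held in the cytoplasm by inhibitor proteins until inhibitor kinases are activated by receptors such as those for tumor necrosis factor and interleukin-1. Nfkb1 encodes a precursor that is processed to the subunit p50, and Relb encodes the subunit of the alternative pathway, which depends on the kinase encoded by Map3k14. In kidney, these genes are best known from tubular injury, in which damaged epithelium and infiltrating leukocytes make cytokines.

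Total counts per library were 5455886 to 6191479 in the ARF-labelled and 2873370 to 5710010 in the healthy-labelled libraries. The gene names of the deposited rows mostly do not belong to the reads counted in them, so each row was named by the exons of the mouse assembly GRCm38 under its intervals. The row named Relb, for example, lay on exons of Ercc1, and the rows named Cxcl3 and Il1rn overlapped no exon of a protein-coding or long non-coding gene. A gene named by position covers only some of its exon bases; these are the same in all libraries, but levels of different genes cannot be compared. Kidney transcripts were present in both groups: markers of the loop of Henle, distal tubule and collecting duct summed to 15586 to 20282 CPM (counts per 1000000 counts of the library) in the ARF-labelled and 4574 to 6388 CPM in the healthy-labelled libraries. Proximal tubule markers summed to 2929 to 4252 CPM in the ARF-labelled and 6448 to 10113 CPM in the healthy-labelled libraries. Those of tubular injury summed to 4867 to 5374 CPM in the ARF-labelled and 15499 to 23186 CPM in the healthy-labelled libraries, and 7 of their 8 tested genes were lower in the ARF-labelled group.

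The comparison asks how the 5 transcripts of kidneys with the acute renal failure label differ from those with the healthy label. All 5 had lower levels in the ARF-labelled libraries, and for each gene every ARF-labelled library lay below every healthy-labelled one. The log2 fold changes (ARF-labelled minus healthy-labelled) were -7.27 for Il11, -6.51 for Cxcl3, -3.39 for Il1rn, -1.61 for Relb and -1.10 for Nfkb1. A gene was called at an adjusted p under 0.05 in the quasi-likelihood test of edgeR, adjusted over 5246 tested genes by the Benjamini-Hochberg method. Of all tested genes, 24.9% were called lower, 25.1% were called higher, and 22.4% had groups that did not overlap with the ARF-labelled group lower. Scaling by total count instead of TMM, edgeR's trimmed mean of M-values, gave 1013 genes lower and 1749 higher in place of 1305 and 1319. It moved the median log2 fold change of all tested genes to 0.19, against 0.01 with TMM, and the 5 genes remained lower (-0.93 for Nfkb1 to -7.10 for Il11). All 5 passed the filter on low counts, but Il11, Cxcl3 and Il1rn passed only through the healthy-labelled group, so that these 3 had to differ to be tested at all. In whole kidney RNA, fewer cells of a type and less RNA per cell cannot be told apart.

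**Figure D1:**
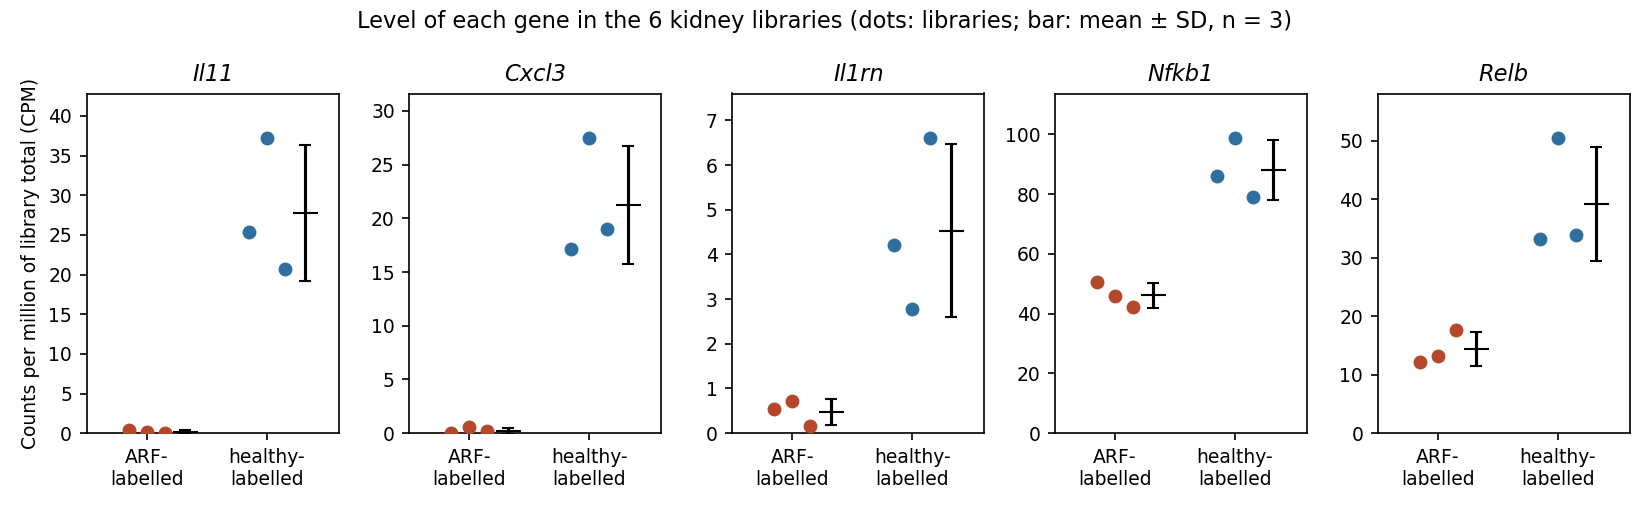
Level of each gene in CPM (counts per 1000000 counts of the library) in the 3 ARF-labelled (left) and 3 healthy-labelled (right) libraries, each panel on its own axis from 0, with dots for libraries and bars for mean and SD. In every panel the ARF-labelled libraries lie below the healthy-labelled ones, near 0 for Il11 (0 to 0.367 CPM) and Cxcl3 (0 to 0.543 CPM).

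Il11 (chromosome 7, 4772373 to 4782859, minus strand, GRCm38) had 0.367, 0.181 and 0 CPM in the ARF-labelled libraries, against 25.4, 37.2 and 20.7 CPM in the healthy-labelled libraries. These are 2, 1 and 0 counts in the ARF-labelled and 145, 107 and 75 counts in the healthy-labelled libraries. The row used was thus at the limit of detection in the ARF-labelled group. The summed rate in the ARF-labelled libraries was 0.653% of that in the healthy-labelled libraries (exact 95% interval 0.134% to 1.92%, for counting error only). The log2 fold change was -7.27 (SE 0.50, adjusted p = 2.04e-05 by edgeR), the sixth lowest of the tested genes. Leaving out ARF-labelled replicate 1 gave -8.08, and leaving out replicate 3 gave -6.66; at so few counts a fitted fold change is set in part by edgeR's prior count. The row covered 436 of the gene's 2081 exon bases, of which 155 are coding and 281 lie in the 3′ untranslated region. It also held 356 intron bases of Il11 and 1952 bases outside the gene, in part within the neighbouring gene Fam71e2. The part of reads from those bases was not tested.

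A further row lay on Il11 but fell short of the share required for naming. The row named Il11 held 422 bases of 3 coding exons of Il11 and 67 exon bases of the neighbouring gene Tmem238, a share of 86.3% against the 90% required. It had 4.58, 5.07 and 5.33 CPM in the ARF-labelled libraries, against 42.9, 61.9 and 36.6 CPM in the healthy-labelled libraries. Its groups also did not overlap, but its level in the ARF-labelled libraries was far from 0. The log2 fold change of this row was -3.38 (SE 0.22), and with its counts added to Il11 the gene's log2 fold change was -4.01 (adjusted p = 9.13e-06 by edgeR), an alternative chosen after the data were seen. The size of the fall of Il11 therefore depends on which row is read. The part of the Tmem238 bases, and of the 1527 intron bases of Il11 in that row, was not tested.

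The promoters of Il11, Cxcl3 and Il1rn are shown for motifs of NF-kB and of AP-1, the transcription factor of the Fos and Jun families. The RefSeq windows on GRCm38.p6 run from 250 bases before to 50 bases after a gene start, in the direction of the gene, with matches in capitals. Windows were given for 3 of the 5 genes. AP-1 was searched as TGANTCA, which reads the same on both strands, and NF-kB by its consensus of 10 bases on both strands. The window of Il11 (chr7:4778092-4778391, minus strand) held 1 AP-1 match, from position -98 to -92 relative to the start.
Il11: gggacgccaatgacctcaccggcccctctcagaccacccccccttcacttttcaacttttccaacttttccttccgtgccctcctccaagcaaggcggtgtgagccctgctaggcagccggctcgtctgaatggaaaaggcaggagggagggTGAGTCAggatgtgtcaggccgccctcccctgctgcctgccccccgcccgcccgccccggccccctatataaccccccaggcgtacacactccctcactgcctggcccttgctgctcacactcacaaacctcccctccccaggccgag
The window of Cxcl3 (chr5:90785851-90786150, plus strand) held the NF-kB consensus on both strands in overlapping positions, from -73 to -64 on its own strand and from -72 to -63 on the other.
Cxcl3: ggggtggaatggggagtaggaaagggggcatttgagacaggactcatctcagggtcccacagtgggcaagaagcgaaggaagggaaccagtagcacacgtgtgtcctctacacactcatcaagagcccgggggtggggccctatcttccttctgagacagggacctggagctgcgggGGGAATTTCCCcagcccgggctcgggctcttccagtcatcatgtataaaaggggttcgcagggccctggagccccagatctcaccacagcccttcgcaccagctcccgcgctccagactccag
The window of Il1rn (chr2:24336610-24336909, plus strand) at its upstream start held 1 AP-1 match, from position -141 to -135.
Il1rn: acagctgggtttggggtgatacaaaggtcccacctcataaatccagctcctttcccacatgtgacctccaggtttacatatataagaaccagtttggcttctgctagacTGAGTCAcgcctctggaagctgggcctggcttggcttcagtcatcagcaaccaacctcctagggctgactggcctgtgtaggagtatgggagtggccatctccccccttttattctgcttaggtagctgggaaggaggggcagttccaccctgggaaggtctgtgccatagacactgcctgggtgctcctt
Neither motif was found in the other window of Il11 or the other 2 windows of Il1rn. Of all 32851 promoter windows in the table, 4.51% held the NF-kB consensus and 7.81% held the AP-1 motif. Counted per gene over all of its windows, the shares were 5.14% and 8.97% of 27025 genes. A match describes the letters only and shows no binding.

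Of 10 ligand genes in the family of Il11, 4 could be read, and Clcf1 was the only other one tested; it fell, while both subunits of the Il11 receptor were not called. Clcf1, which encodes a cardiotrophin-like cytokine, averaged 7.17 ± 2.60 CPM in the ARF-labelled and 23.3 ± 5.79 CPM in the healthy-labelled libraries (SD, n = 3 each; log2 fold change -1.86, SE 0.29, edgeR adjusted p = 0.00101). Il6 and Osm had 0 counts in all ARF-labelled libraries, against 8 and 12 counts summed over the healthy-labelled libraries, and were too low to be tested. Of 11 receptor and signalling genes tested, 4 were lower and 1 higher, with a median log2 fold change of 0.09. The shares over all tested genes were 24.9% lower and 25.1% higher. Il11ra1, the interleukin-11 receptor subunit, averaged 191 ± 27.1 CPM in the ARF-labelled and 149 ± 21.9 CPM in the healthy-labelled libraries (log2 fold change 0.19, edgeR adjusted p = 0.314). Il6st, which encodes gp130, had a log2 fold change of -0.14 (edgeR adjusted p = 0.321), and 0.03 with scaling by total count. Downstream, Stat3 averaged 105 ± 0.888 CPM in the ARF-labelled and 205 ± 8.02 CPM in the healthy-labelled libraries (log2 fold change -1.14, SE 0.09, edgeR adjusted p = 4.55e-05), and the kinase gene Jak2 was lower by a similar factor (log2 fold change -1.19, SE 0.12). Osmr, the oncostatin M receptor, was lower (-2.94, SE 0.17), and the kinase gene Tyk2 was the gene that was higher (0.74, SE 0.13); both are named after their values were seen.

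Cxcl3 (chromosome 5, 90786103 to 90789600, plus strand) had 0, 0.543 and 0.162 CPM in the ARF-labelled libraries, against 17.2, 27.5 and 19.0 CPM in the healthy-labelled libraries. These are 0, 3 and 1 counts in the ARF-labelled and 98, 79 and 69 counts in the healthy-labelled libraries. The summed rate in the ARF-labelled libraries was 1.16% of that in the healthy-labelled libraries (exact 95% interval 0.313% to 3.0%, for counting error only). The log2 fold change was -6.51 (SE 0.51, adjusted p = 3.59e-05 by edgeR), and -7.71 without ARF-labelled replicate 2. Cxcl3 was read over 869 of its 1016 exon bases, the widest coverage among the 5 genes, mostly in the 3′ untranslated region. The row also held 58 exon bases of Ppbp, another CXC chemokine gene, which put its share at 93.7%, just inside the 90% required. The CXC chemokines are similar in sequence, but none of 779 stretches of 31 bases in the counted exons of Cxcl3 occurred in a transcript of another gene. The row also held 1317 intron bases of Cxcl3 and 2074 bases outside it, the Ppbp bases among them. Those bases were not searched in this way, and their part in the counts was not tested.

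Cxcl3 was the only CXC chemokine gene of 15 that could be read, so the other chemokines that bind its receptor were not compared. Of 4 other chemokine genes tested, 2 were lower, 0 higher and 2 not called. Cx3cl1, a membrane-bound chemokine of epithelium and endothelium, averaged 128 ± 14.6 CPM in the ARF-labelled and 171 ± 18.8 CPM in the healthy-labelled libraries (log2 fold change -0.59, SE 0.12, edgeR adjusted p = 0.00394). Ccl9, a chemokine of myeloid cells, had a log2 fold change of -2.09 (SE 0.54, edgeR adjusted p = 0.0123) on 10 counts in the ARF-labelled and 27 in the healthy-labelled libraries, and -2.69 without ARF-labelled replicate 3. Ccl27a (0.53) and Ccl28 (0.28), both chemokines of epithelia, were not called (edgeR adjusted p = 0.129 and 0.777). Ccr2, a chemokine receptor of monocytes, was lower (-1.36, SE 0.36, edgeR adjusted p = 0.0128). Its call was lost without healthy-labelled replicate 3 (edgeR adjusted p = 0.0548).

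Il1rn (chromosome 2, 24336853 to 24351494, plus strand) had 0.550, 0.724 and 0.162 CPM in the ARF-labelled libraries, against 4.2, 2.78 and 6.61 CPM in the healthy-labelled libraries. It was the least counted of the 5, with 8 counts over the ARF-labelled and 56 over the healthy-labelled libraries. The groups did not overlap, and within the healthy-labelled group replicate 3 was the highest and replicate 2 the lowest. The summed rate in the ARF-labelled libraries was 10.2% of that in the healthy-labelled libraries (exact 95% interval 4.18% to 21.4%, for counting error only). The log2 fold change was -3.39 (SE 0.55, adjusted p = 0.00129 by edgeR). The 217 exon bases read, of 2706, lie in the 3′ untranslated region of a single annotated transcript, so that the other annotated transcripts of Il1rn were not measured. The row also held 5356 bases outside Il1rn, in part within the neighbouring gene Psd4, and the part of reads from there was not tested.

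Of 23 receptors and signal carriers of interleukin-1 and its family, 10 could be read and 9 tested. Of these 9 genes, 7 were lower and 0 higher, while 24.9% of all tested genes were called lower. Their median log2 fold change was -1.02, against 0.01 over all tested genes. Il1r1, the signalling receptor that the product of Il1rn blocks, averaged 32.8 ± 0.698 CPM in the ARF-labelled and 59.2 ± 9.0 CPM in the healthy-labelled libraries (log2 fold change -1.02, SE 0.13, edgeR adjusted p = 0.000410). The adaptor kinase Irak2 (-1.11, SE 0.18) and Tollip (-0.82, SE 0.11), a regulator of receptor signalling, were lower. Map3k7, which encodes the kinase TAK1, was lower by less (-0.49, SE 0.12, edgeR adjusted p = 0.00834) and lost its call with scaling by total count (adjusted p = 0.0530). Il1r2, the decoy receptor for interleukin-1, had 6 counts over the ARF-labelled and 102 over the healthy-labelled libraries (log2 fold change -4.73, SE 0.60). Il18rap, a subunit of the interleukin-18 receptor, was lower (-3.96, SE 0.53), with -4.90 without ARF-labelled replicate 1. Il1rl2, the interleukin-36 receptor, was lower as well (-2.12, SE 0.18). These last 3 genes are named after their values were seen. Il1r2 and Il18rap passed the filter on low counts only through the healthy-labelled group, so they had to differ to be tested at all. Il1a, a ligand of the receptor, had 2 counts over the ARF-labelled and 2 over the healthy-labelled libraries and could not be tested. Untested genes with more counts in the ARF-labelled group included Il1f10, another ligand of the interleukin-1 family, with 36 counts over the ARF-labelled and 3 over the healthy-labelled libraries, and the cytokine gene Il25, with 26 over the ARF-labelled and 4 over the healthy-labelled libraries. Both are named after their values were seen.

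Nfkb1 (chromosome 3, 135584655 to 135691547, minus strand) had 50.6, 45.8 and 42.2 CPM in the ARF-labelled libraries, against 86.0, 98.8 and 79.0 CPM in the healthy-labelled libraries. The healthy-labelled libraries were all above the ARF-labelled ones, and replicate 2 was the highest of them. The summed rate in the ARF-labelled libraries was 52.9% of that in the healthy-labelled libraries (exact 95% interval 48.2% to 58.1%, for counting error only). With TMM, which the summed rate does not use, the log2 fold change was -1.10 (SE 0.13, adjusted p = 0.000258 by edgeR). Scaled by total count, as the summed rate is, it was -0.93.
Nfkb1 was read through 2 rows, both lower in the ARF-labelled group. A row over 144 coding bases had 39.8, 34.9 and 32.8 CPM in the ARF-labelled libraries, against 69.5, 81.1 and 63.6 CPM in the healthy-labelled libraries (log2 fold change -1.15 and SE 0.14, edgeR adjusted p = 0.000225 over 10919 rows). A row over 70 bases of a 5′ untranslated exon had 10.8, 10.9 and 9.37 CPM in the ARF-labelled libraries, against 16.5, 17.7 and 15.4 CPM in the healthy-labelled libraries (log2 fold change -0.83, SE 0.18, edgeR adjusted p = 0.00512). Among all rows, 22.6% were called lower and 23.6% higher. Another row, with 546 coding bases of Nfkb1 and 254 exon bases of the gene Manba on the other strand, had a share of 68.3% and was not used. Its log2 fold change was -0.83 (SE 0.12), and Manba itself was not called (0.29, edgeR adjusted p = 0.107). The unused row held 1908 counts over the ARF-labelled and 2107 over the healthy-labelled libraries, more than the 790 and 1062 used. With its counts added, an alternative chosen after the data were seen, Nfkb1 had -0.92 (adjusted p = 0.000277 by edgeR). The part of the Manba bases in that row was not tested.

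The coding stretch that carries most Nfkb1 counts (chr3:135608152-135608295, minus strand, GRCm38) is shown because it falls in the glycine-rich region of the precursor, which is known to take part in its processing to p50. Capitals mark the glycine codons, 17 of 47 whole codons.
Nfkb1: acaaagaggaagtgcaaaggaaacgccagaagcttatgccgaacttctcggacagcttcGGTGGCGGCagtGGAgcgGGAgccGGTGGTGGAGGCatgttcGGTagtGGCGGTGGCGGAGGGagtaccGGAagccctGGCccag
Both transcripts of Nfkb1 in the basic annotation hold this exon, so that the count does not tell their products apart.

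Relb (chromosome 7, 19606217 to 19629438, minus strand) had 12.1, 13.2 and 17.6 CPM in the ARF-labelled libraries, against 33.1, 50.5 and 33.9 CPM in the healthy-labelled libraries. The groups did not overlap, with replicate 3 the highest of the ARF-labelled and replicate 2 of the healthy-labelled libraries. The summed rate in the ARF-labelled libraries was 38.6% of that in the healthy-labelled libraries (exact 95% interval 32.9% to 45.1%, for counting error only). With TMM, the log2 fold change was -1.61 (SE 0.21, adjusted p = 0.000403 by edgeR). Scaled by total count, as the summed rate is, it was -1.44.
Relb was read over 147 coding bases in 2 exons, chr7:19611817-19611885 and chr7:19611623-19611700 on the minus strand, which are shown because they are all that represents the transcript here. Capitals mark codons for lysine and arginine, 5 of 22 whole codons in the first and 6 of 25 in the second stretch.
Relb first stretch: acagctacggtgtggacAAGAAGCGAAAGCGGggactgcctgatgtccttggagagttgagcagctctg
Relb second stretch: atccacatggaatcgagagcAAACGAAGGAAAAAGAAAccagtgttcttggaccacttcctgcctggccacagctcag
The row of Relb also held 3214 bases of its introns, and those of Nfkb1 held 403 and 230 intron bases, so unspliced RNA can be among the counts; its part was not tested. The other subunit genes Nfkb2, Rel and Rela could not be read.

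**Figure D2:**
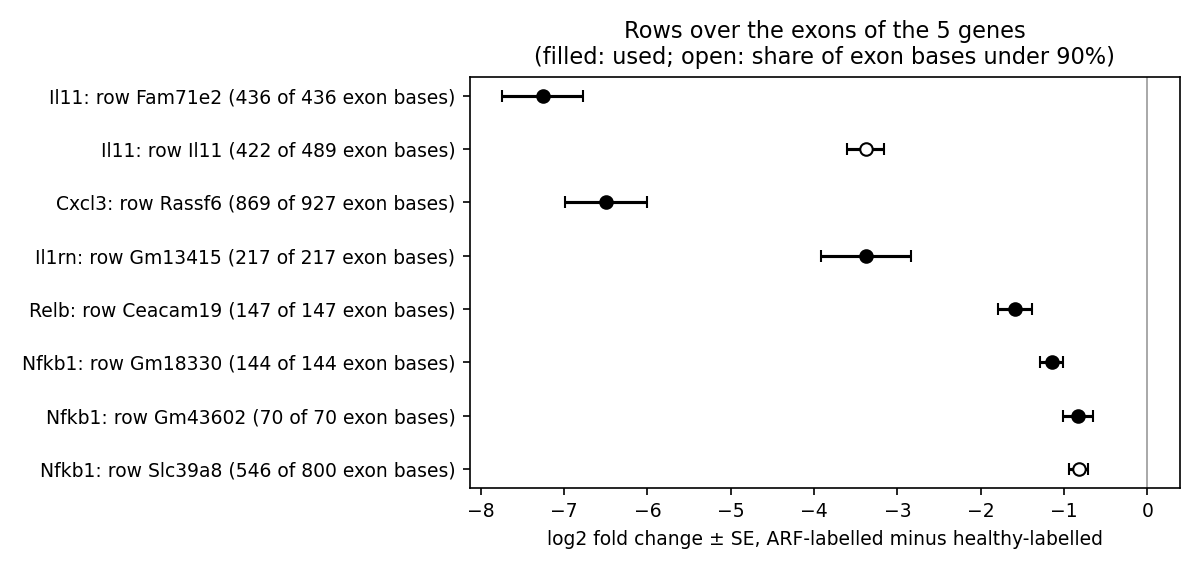
Log2 fold change with SE of each deposited row over the exons of the 5 genes, from edgeR on all rows; filled points are rows used and open points are rows with under 90% of their exon bases in the gene. All 8 rows lie below 0, and the row named Il11 (-3.38) stands apart from the Il11 row that was used (-7.25).

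Upstream of the subunits, genes that activate NF-kB were in part lower and in part not called. Of 5 activating receptors tested, 3 were lower and 0 higher. Tnfrsf1a, the main receptor for tumor necrosis factor, averaged 96.3 ± 6.90 CPM in the ARF-labelled and 258 ± 7.97 CPM in the healthy-labelled libraries (log2 fold change -1.59, SE 0.10, edgeR adjusted p = 1.25e-05). Tlr4, the receptor for bacterial lipopolysaccharide, was lower (-0.97, SE 0.27, edgeR adjusted p = 0.0162) and lost its call without ARF-labelled replicate 1 (adjusted p = 0.0532). Eda2r, a receptor for the A2 form of ectodysplasin, was lower (-1.29, SE 0.34), while Nod1, a sensor of bacterial cell walls, and Tnfrsf11a, which encodes RANK, had 0.32 and -0.26 and were not called (edgeR adjusted p = 0.267 and 0.698). Among ligands, Tnfsf14 had 6 counts over the ARF-labelled and 46 over the healthy-labelled libraries (-3.58, SE 0.61). Tnfsf12 had -0.63 (edgeR adjusted p = 0.119) and was called only without healthy-labelled replicate 1 (-0.90, adjusted p = 0.0308). The lymphocyte growth factor Il7 had -0.82 (SE 0.24, edgeR adjusted p = 0.0212). Il7 lost its call without healthy-labelled replicate 3 or any ARF-labelled replicate (adjusted p 0.0536 to 0.0758), and with scaling by total count (adjusted p = 0.0533).

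Of 13 kinases and adaptors tested, 5 were lower, 2 higher and 6 not called, with a median of -0.04. The shares over all tested genes were 24.9% lower and 25.1% higher. Birc3, an adaptor of tumor necrosis factor receptors that is itself induced by NF-kB, averaged 153 ± 11.2 CPM in the ARF-labelled and 608 ± 72.5 CPM in the healthy-labelled libraries (log2 fold change -2.16, SE 0.13, edgeR adjusted p = 1.11e-05). Its close relative Birc2 had 0.05 (edgeR adjusted p = 0.742), and the inhibitor kinase Ikbkb had -0.30 (adjusted p = 0.0664), called only without ARF-labelled replicate 3 (adjusted p = 0.0246). Card10, a scaffold of receptor signalling, had -0.65 (SE 0.20, edgeR adjusted p = 0.0225). Card10 lost its call without healthy-labelled replicate 2 or 3 (adjusted p = 0.0508 and 0.0753), with scaling by total count (0.0807) and with rows entirely on 1 gene (0.622). Map3k14, the kinase that acts upstream of Relb, averaged 45.4 ± 2.58 CPM in the ARF-labelled and 101 ± 5.54 CPM in the healthy-labelled libraries (-1.32, SE 0.11). Map3k8, a kinase that binds the Nfkb1 precursor, was lower too (log2 fold change -2.53, SE 0.22). The adaptor Traf2 (0.80, SE 0.22) and the ubiquitin ligase subunit Rbck1 (0.63, SE 0.19) were higher; these 4 genes are named after their values were seen. Traf2 was no longer called without healthy-labelled replicate 3 or ARF-labelled replicate 1 (edgeR adjusted p = 0.0657 and 0.0542). Rbck1 was no longer called without healthy-labelled replicate 1 or 3 or ARF-labelled replicate 3 (adjusted p 0.0864 to 0.0879).

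Of 5 genes tested in the list of inhibitors and related proteins, 3 were lower and 0 higher. Nfkbiz encodes a nuclear member of the inhibitor protein family and is induced by NF-kB. It averaged 19.4 ± 7.39 CPM in the ARF-labelled and 134 ± 35.6 CPM in the healthy-labelled libraries (log2 fold change -2.96, SE 0.29, edgeR adjusted p = 9.65e-05). Tnip2, which binds the deubiquitinase A20, was lower (-1.22, SE 0.31). Traf3, a restraint on the alternative pathway, had -0.42 (SE 0.15, edgeR adjusted p = 0.0415). Traf3 lost its call without healthy-labelled replicate 2 or 3 or any ARF-labelled replicate (adjusted p 0.0597 to 0.132) and in the DESeq2 test (0.0760), with scaling by total count (0.215), without a filter (0.0918) and with a replicate block (0.0905). The deubiquitinase Otulin (-0.20) and Tnip1 (-0.05) were not called (edgeR adjusted p = 0.121 and 0.841). Of 9 tested genes that NF-kB is known to induce, 5 were lower, 0 higher and 4 not called, with a median of -0.79. Pdgfb, a platelet-derived growth factor gene, averaged 24.7 ± 9.63 CPM in the ARF-labelled and 171 ± 41.9 CPM in the healthy-labelled libraries (log2 fold change -2.95, SE 0.29), and Cflar, an inhibitor of caspase activation, had -0.79 (SE 0.16). Sod2, a mitochondrial superoxide dismutase, had 0.08 (edgeR adjusted p = 0.574), and complement C3 had 0.30 (adjusted p = 0.599), called higher only without healthy-labelled replicate 2 (1.04, adjusted p = 0.0134). The adhesion genes Selp (-3.82, SE 0.40) and Vcam1 (-2.42, SE 0.44) and the acute phase gene Saa3 (-4.41, SE 0.79) were lower and are named after their values were seen; Saa3 had -3.72 without healthy-labelled replicate 2. Over all 14 lists, 67 of 269 genes were tested. Over all tested genes of the data, 24.9% were called lower and 25.1% higher. Of the 62 list genes that are not among the 5 genes, 34 were lower, 3 higher and 25 not called. That tally is a description only: the lists were drawn up with earlier results known, and 6 of the 34 (Ccl9, Il18rap, Il1r2, Saa3, Selp and Tnfsf14) passed the filter on low counts through the healthy-labelled group alone, against 0 through the ARF-labelled group alone.

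**Figure D3:**
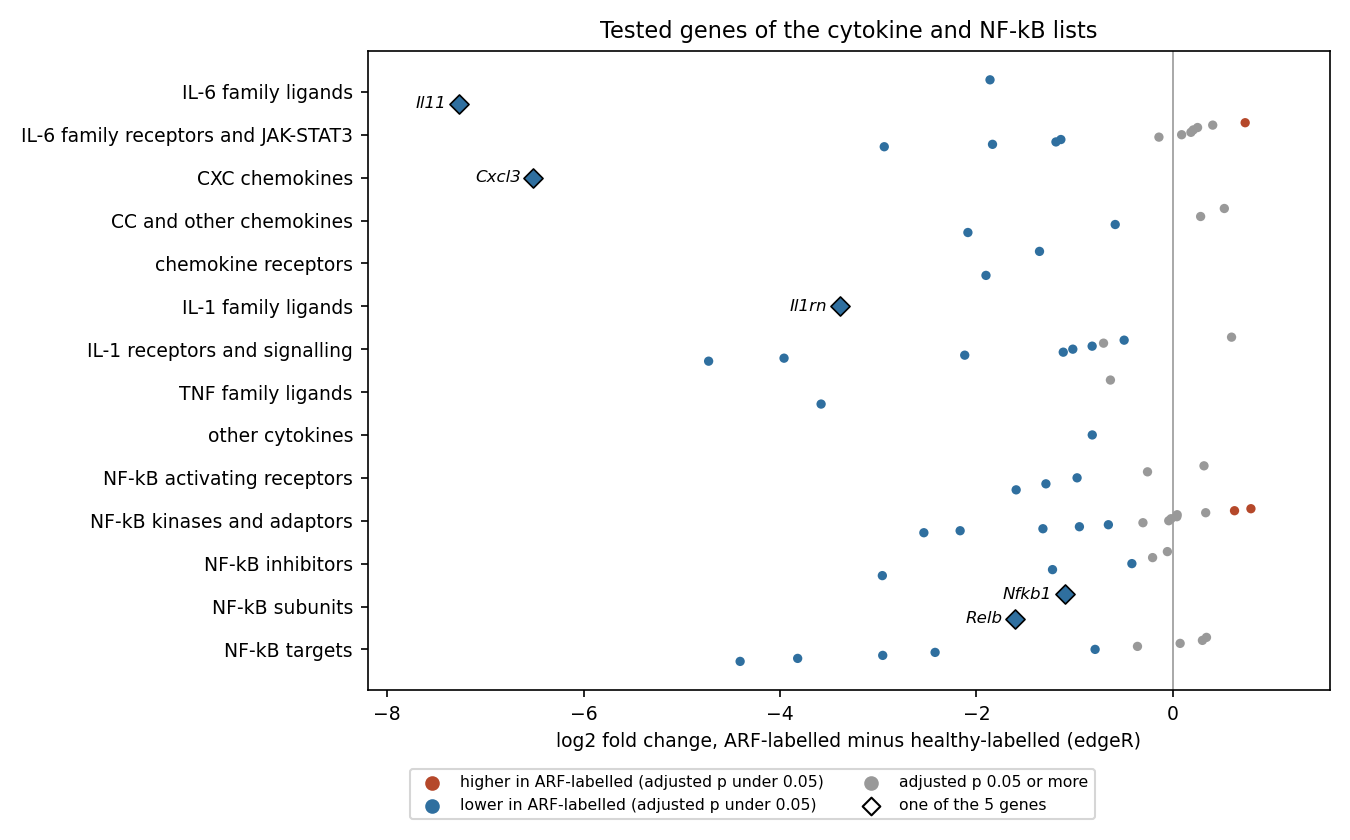
Log2 fold change (ARF-labelled minus healthy-labelled) of each tested gene of the cytokine and NF-kB lists, by list; color gives the edgeR call and diamonds mark the 5 genes. Il11 and Cxcl3 lie farthest to the left, and 3 of 67 genes were called higher.

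Within a library, the ratio of 2 of the 5 genes depends on the library's scaling only through the prior count. That part matters at the low counts of Il11, Cxcl3 and Il1rn in the ARF-labelled libraries. All 10 pairs were compared by an exact two-sided permutation test, which with 3 libraries against 3 cannot give a p below 0.10, with p-values adjusted over the 10 pairs. The ratio of Cxcl3 to Il1rn was -1.18 to 0 on the log2 scale in the ARF-labelled and 1.47 to 3.14 in the healthy-labelled libraries, a difference of -2.66 (exact p = 0.10, adjusted p = 0.143). Both genes had 0 to 4 counts in each ARF-labelled library, so their ratio there is set mostly by the prior count of 2, and no order of their falls is read from it. The ratio of Cxcl3 to Relb differed by -3.66, and that of Il11 to Nfkb1 by -4.61, both with groups that did not overlap (exact p = 0.10 each, adjusted p = 0.143). Il11, Cxcl3 and Il1rn passed the filter on low counts only through the healthy-labelled group, whereas Nfkb1 and Relb passed through both. The filter thus favoured larger falls of the former, and these pairs cannot rank the falls. With the unused row added, the fitted fold change of Il11 was -4.01, and its ratios were not recomputed. For Il11 to Cxcl3 the difference was -0.45 (exact p = 0.40, adjusted p = 0.40), for Il1rn to Relb -1.0 (exact p = 0.30, adjusted p = 0.333) and for Nfkb1 to Relb 0.49 (exact p = 0.20, adjusted p = 0.25), and in these 3 pairs the groups overlapped. The ratio of Nfkb1 to Relb was 1.24 to 2.03 in the ARF-labelled and 0.96 to 1.37 in the healthy-labelled libraries. These ratios use log2 CPM with a prior count of 2, which narrows the falls of Il11 and Cxcl3, so they are smaller than the fitted fold changes imply.

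**Figure D4:**
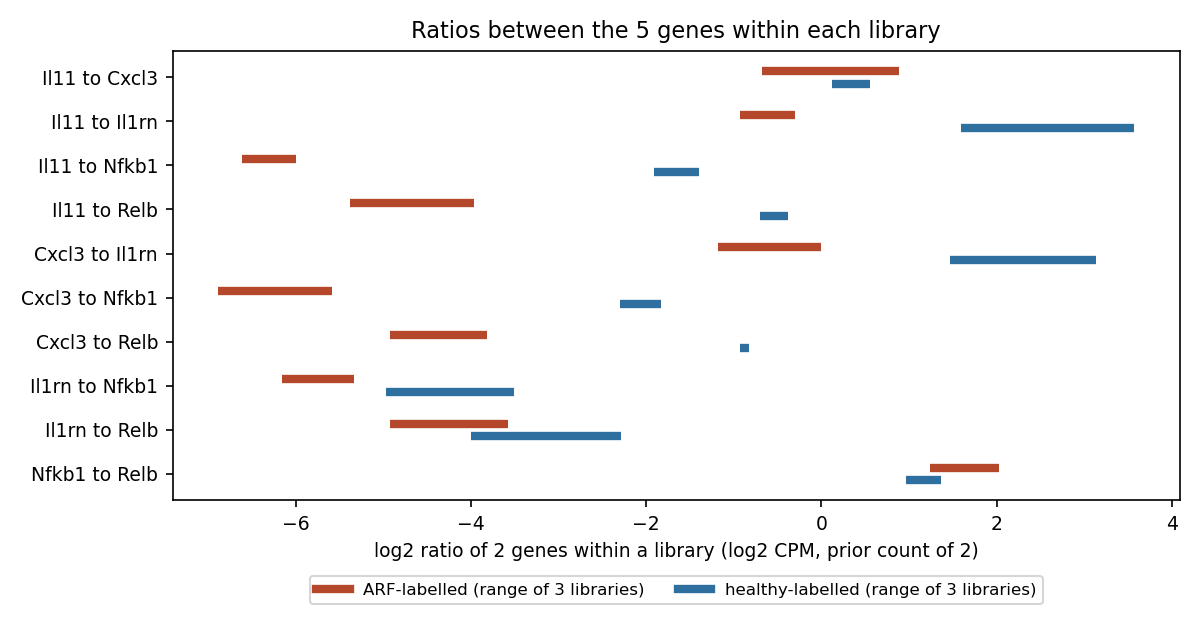
Range over 3 libraries of the log2 ratio of 2 genes within a library, for the 10 pairs of the 5 genes, ARF-labelled above healthy-labelled. The ranges overlap for Il11 to Cxcl3, Il1rn to Relb and Nfkb1 to Relb, and are apart for the other 7 pairs.

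The tested genes with the most similar profile were found by the root mean square difference of centred log2 CPM over the 6 libraries. For Il11 they were Sprr2d (0.45), Akap12 (0.52) and Cxcl3 (0.55), and for Cxcl3 they were Adam8 (0.35), Sprr2d (0.50) and Il11 (0.55). For Il1rn they were Slc34a1 (0.24), Tnc (0.25) and Pde6a (0.27). For Nfkb1 they were Selenoi (0.087), Oaf (0.094) and Npm1 (0.095), and for Relb they were Hspe1 (0.13), Dnajb5 (0.14) and Ankrd50 (0.15). The 2 subunits were thus not among each other's 3 nearest genes, whereas Il11 and Cxcl3 were. However, Il11 and Cxcl3 ranked 6 and 8 from the lowest log2 fold change, where few tested genes lie. Both had 0 to 3 counts per ARF-labelled library, where the prior count sets much of the profile. The same holds for Il1rn, with 3, 4 and 1 counts in these libraries. Its nearest genes had fitted log2 fold changes of -2.62 (Slc34a1), -2.48 (Tnc) and -2.72 (Pde6a), against -3.39 for Il1rn. No closer likeness of Il11 and Cxcl3 than of the 2 subunits is read from these ranks. Sprr2d belongs to a family of near-identical copies and is uncertain.

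Markers of neutrophils and macrophages were lower beside these genes, while those of lymphocytes were mixed. Of the T and NK cell genes tested 1 was lower and 1 not called, and of the B cell genes 1 was lower and 1 higher. Of the neutrophil list, 4 of 20 genes could be read and summed to 6.15 to 9.16 CPM in the ARF-labelled and 55.0 to 169 CPM in the healthy-labelled libraries, with all 3 tested genes lower. Mmp8, a neutrophil collagenase, changed by -5.05 on the log2 scale (SE 0.57), and Csf3r, the receptor for granulocyte colony-stimulating factor, by -3.70 (SE 0.44). None of the 4 was at 0 over a group. Of the macrophage and dendritic cell list, 8 of 20 genes could be read and summed to 33.1 to 40.0 CPM in the ARF-labelled and 54.5 to 113 CPM in the healthy-labelled libraries, with 5 of 8 lower, 0 higher and none at 0 over a group; the lysosomal protease gene Ctss had -1.29 (SE 0.22). All 8 immediate early genes tested, which respond within minutes to stress or tissue handling, were lower too, and that list summed to 502 to 907 CPM in the ARF-labelled and 3196 to 4175 CPM in the healthy-labelled libraries. The part of these cells and of handling in the levels of the 5 genes was not tested.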

How the data were processed

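Per the labels' protocols, kidney RNA was prepared with Trizol and sequenced from Illumina TruSeq RNA libraries. The authors deposited whole-number counts per gene row. Per the file headers, featureCounts 2.0.1 counted fragments over exons by gene name, with both ends aligned, without chimeric pairs and ignoring strand, so reads of genes on opposite strands cannot be told apart. Bowtie 0.12.2 and the build mm9 appear in the submitters' processing notes; an aligner for the deposited files was not given in the sources used here.

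Row intervals were intersected with GRCm38 exons (GENCODE M21 basic, protein-coding and lncRNA genes, no read-through transcripts; bedtools 2.31.1, Python 3.11.15, pandas 2.3.3). A row was named for the gene that held a share of 0.9 or more, with a minimum of 25 bases, of the exon bases under it, and rows of a gene were summed. In this way 12401 rows, with 63.0% of the counts, gave 9519 genes. Rows also hold introns and flanking bases.

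edgeR 4.0.16 (R 4.3.3; glmQLFit, glmQLFTest) was run two-sided on group alone, with filterByExpr, TMM and the total of all rows as library size, and was checked on simulated counts. CPM is relative to the library total; means are ± SD, n = 3. SEs are the absolute log2 fold change divided by the root of edgeR's F. Summed rates use library totals without TMM, so they differ in scale from the fitted fold changes. Their intervals are exact binomial (Clopper-Pearson) at 95%.

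The 5 genes and all lists were chosen with earlier results of these data known. The text names all tested genes of a list where 5 or fewer were tested, otherwise the 4 with most counts, the 3 most similar profiles per gene and 2 genes per marker list, beside those said to be named after their values were seen. A gene that this rule would name is not reported here. DESeq2 1.42.0 and the other settings in the closing section were alternatives.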

Additional observations from a re-analysis of the deposited data

How the results depend on the processing

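The 5 genes kept their direction and their side of the threshold in all 72 values recomputed for them under other settings. Cxcl3 had no value when rows had to lie entirely on 1 gene. Leaving out 1 library in turn gave log2 fold changes of -8.08 to -6.66 for Il11, -7.71 to -5.98 for Cxcl3, -3.80 to -2.94 for Il1rn, -1.20 to -1.02 for Nfkb1 and -1.76 to -1.43 for Relb. The count of pathway genes called higher, 3 in the report, was 5 with scaling by total count, 5 without a filter and 1 with at least 100 exon bases per row. Without a filter, 1 interleukin-1 family ligand and 1 gene of the other cytokines were called higher, against 0 in each list in the report. Scaling by total count called 1 gene of interleukin-1 receptors and signalling higher, against 0 in the report. The last setting read fewer genes. Further causes were not tested. With scaling by total count, the uncalled genes Il6st (0.034), Tnip1 (0.12) and Lck (0.15) changed sign, and so did Lck without a filter (0.023). Leaving out 1 library gave values on both sides of 0 for uncalled genes only: Birc2 (-0.017 to 0.090), Tnfrsf11a (-0.59 to 0.51), C3 (-0.10 to 1.04), Ccl28 (-0.75 to 1.40), Sod2 (-0.0042 to 0.11), Tnip1 (-0.14 to 0.085), Lck (-0.21 to 0.16), Lrp2 (-0.10 to 0.36) and Plce1 (-0.21 to 0.26). Replicate numbers showed no sign of pairing the libraries. Deviations from the group means of same-numbered libraries correlated at -0.07, -0.22 and -0.29 across 5246 genes. Differently numbered libraries correlated at -0.055 to 0.245. Deviations within a group depend on each other, so these values cannot exclude a pairing. With the number as a replicate block, 1153 genes were lower and 1135 higher, and the 5 genes had -7.26 (Il11), -6.56 (Cxcl3), -3.34 (Il1rn), -1.10 (Nfkb1) and -1.61 (Relb). Traf3 and Thsd7a lost their calls under the block, and no other named gene's call changed. At depths of 2873370 to 6191479 counts, the rows used for Il11 and Cxcl3 held 0 to 3 counts per ARF-labelled library. Differences among those libraries were therefore not detectable in these rows. The unused row named Il11 held 25, 28 and 33 counts in the ARF-labelled libraries. With that row added, an alternative chosen after the data were seen, Il11 had -4.01, outside its range above. Nfkb1 with its own unused row added in the same way had -0.92, also outside its range above.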

Other observations

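Both B cell genes tested were called, in opposite directions: Blk was higher (log2 fold change 1.82, SE 0.49) and Pax5 lower (-2.43, SE 0.58, and -3.41 without ARF-labelled replicate 3). Blk lost its call without healthy-labelled replicate 1 or 3 (edgeR adjusted p = 0.0547 and 0.0550). Of the T cell genes, the interleukin-7 receptor gene Il7r was lower (-3.49, SE 0.49) and the kinase gene Lck was not called (-0.02, edgeR adjusted p = 0.966). Of 6 endothelial genes, 3 were lower and 0 higher, among them Pecam1 (-1.29, SE 0.16) and Eng (-1.03, SE 0.25). Of 8 fibroblast and mesangium genes, 1 was lower, 2 higher and 5 not called. The 2 higher were Dcn (0.88, edgeR adjusted p = 0.0207) and Myh11 (0.76, adjusted p = 0.0475), named after their values were seen. The collagen genes Col1a1 (-2.28) and Col1a2 (-0.79) were not called (edgeR adjusted p = 0.0674 and 0.228), but both were called lower without healthy-labelled replicate 1 (adjusted p = 0.0157 and 0.0319), and Col1a1 also without a filter on low counts (adjusted p = 0.0318). Healthy-labelled replicate 2 carried most of both values: without it they were -0.25 and -0.053 (adjusted p = 0.668 and 0.928). Among erythroid genes, Hbb-bs was lower (-3.37, SE 0.59) and Slc4a1, which the collecting duct also expresses, was higher (2.86, SE 0.27). Among urothelial genes, Krt20 was lower (-3.87, SE 0.21) and Upk3a higher (1.86, SE 0.28).

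In the nephron, 9 of 10 loop, distal tubule and collecting duct genes were higher in the ARF-labelled libraries and 1 was lower, among them Aqp3 (1.19, SE 0.14) and Calb1 (1.98, SE 0.35), both higher. Of 7 proximal tubule genes 6 were lower, among them Ass1 (-2.05, SE 0.20), while Lrp2 was not called (0.17, edgeR adjusted p = 0.612). Of 3 podocyte genes, 1 was lower, 1 higher and 1 not called. Synpo, named after its values were seen, was lower (-2.37, SE 0.22, edgeR adjusted p = 7.80e-05). Thsd7a was higher (0.49, SE 0.17, edgeR adjusted p = 0.0433) and Plce1 was not called (0.07, adjusted p = 0.824). The call of Thsd7a was lost when replicate 1 or 3 of either group was left out (edgeR adjusted p 0.0998 to 0.133) and with a replicate block (0.0774). The injury genes Cd24a (-1.18, SE 0.17) and Clu (-2.54, SE 0.28) and the immediate early genes Junb (-2.47, SE 0.23) and Fos (-3.02, SE 0.78, and -4.80 without ARF-labelled replicate 1) were lower, beside the fall of the 5 genes.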
